A study of Mus musculus with 60 samples.

Results

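A set of 10 genes of the neuromuscular junction and of the response of muscle fibres to the loss of their nerve was followed in mouse gastrocnemius, the large fast muscle of the calf, with heart muscle beside it. They were Chrna1, Chrnb1, Chrnd, Chrne and Chrng, which encode the subunits of the muscle acetylcholine receptor, Musk and Ncam1, which act at the fibre surface, Myog and Runx1, which encode transcription factors, and the stress gene Gadd45a. Every probe set that the array's probe-to-gene table assigned to 1 of these symbols was taken, which gave 23 probe sets for 10 of the 18193 genes named in that table. The samples were RNA from male B6C3F1 hybrid mice, the first-generation cross of C57BL/6 and C3H/He, which were individually housed. Each tissue had 4 groups of 5 arrays. Young control mice were 5 months old and ate the control diet. The other 3 groups were 30 months old. Of these, old control mice stayed on the AIN-93M control diet, old CR mice were put on a calorie-restricted version at 14 months, and old resveratrol mice ate the control diet with resveratrol, at 4.9 mg per kg body weight, from 14 months. The labels call the restriction 40%, while the weekly calorie allowances in the study's methods correspond to a smaller cut. Per the same methods, the mice on the control diet were themselves given slightly less food than they would eat freely, so no group was freely fed. Arrays are labelled as biological replicates.

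At the adult junction, the motor nerve releases acetylcholine onto a receptor of 5 subunits that is packed into a small patch of the fibre membrane, the endplate. Nerve-derived agrin keeps the patch in place through its receptor Lrp4 and the kinase Musk, and electrical activity silences the receptor genes in the nuclei away from the patch. When a fibre loses its nerve or its activity, myogenin, the product of Myog, accumulates and binds E-boxes (the letters CANNTG) in the promoters of receptor genes, and Chrna1, the fetal subunit Chrng, Musk, Ncam1, Runx1 and Gadd45a are known to be switched on along the whole fibre. The adult subunit Chrne is, in contrast, transcribed mainly by the nuclei under the nerve, where the N-box (CCGGAA) of its promoter is bound by the ETS factor GABP.

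The stretch of 200 bases before the RefSeq transcription start (assembly GRCm38.p6) is shown for 4 of the receptor subunit genes, since these are the promoters in which E-boxes and N-boxes have been studied, and for Gadd45a, the member with the lowest adjusted p with age. Each is written from 5′ to 3′ on the coding strand and ends at the base before the start. Capitals mark every CANNTG and every CCGGAA or its reverse complement.
Chrna1, chr2:73580339-73580538, minus strand: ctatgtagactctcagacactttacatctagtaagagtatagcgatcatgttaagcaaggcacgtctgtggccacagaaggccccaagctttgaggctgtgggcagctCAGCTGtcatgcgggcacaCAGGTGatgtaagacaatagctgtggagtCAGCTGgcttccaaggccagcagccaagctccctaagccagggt
Chrnb1, chr11:69795938-69796137, minus strand: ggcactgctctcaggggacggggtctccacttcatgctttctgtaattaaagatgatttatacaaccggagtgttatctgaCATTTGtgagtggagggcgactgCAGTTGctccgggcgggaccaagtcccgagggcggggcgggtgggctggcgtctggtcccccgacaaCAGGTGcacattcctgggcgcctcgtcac
Chrne, chr11:70619195-70619394, minus strand: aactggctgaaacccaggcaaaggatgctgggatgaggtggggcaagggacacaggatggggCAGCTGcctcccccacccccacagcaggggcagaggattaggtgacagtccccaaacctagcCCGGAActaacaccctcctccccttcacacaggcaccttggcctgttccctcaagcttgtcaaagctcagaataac
Chrng, chr1:87205611-87205810, plus strand: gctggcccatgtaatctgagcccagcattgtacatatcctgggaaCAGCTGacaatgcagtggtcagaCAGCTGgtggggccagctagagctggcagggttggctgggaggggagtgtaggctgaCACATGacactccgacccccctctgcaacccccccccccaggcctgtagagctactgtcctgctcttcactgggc
Gadd45a, chr6:67037408-67037607, minus strand: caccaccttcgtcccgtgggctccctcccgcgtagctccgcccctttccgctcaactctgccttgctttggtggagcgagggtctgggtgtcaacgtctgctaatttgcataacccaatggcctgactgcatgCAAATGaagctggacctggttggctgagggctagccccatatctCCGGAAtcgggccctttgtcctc
The Chrna1 window held 3 E-boxes, 2 of them with the letters CAGCTG, and the Chrng window likewise held 3, of which 2 read CAGCTG. The Chrnb1 window held 3 E-boxes and no CAGCTG. The Chrne window held 1 E-box, with the letters CAGCTG, and 1 N-box. The Gadd45a window held 1 E-box and 1 N-box. RefSeq gave 9 windows for 8 of the members, Chrnd and Ncam1 having none. An E-box occurred in 8 of the 9 windows, 3 or more E-boxes in 5, CAGCTG in 4 and an N-box in 3. Among all 32851 promoter windows of the same length, 58.2% held an E-box, 7.49% held 3 or more, 10.9% held CAGCTG and 10.7% held an N-box, counted on both strands (CANNTG reads alike on both, and CAGCTG is a kind of CANNTG). These matches describe letters and do not show that a factor binds there.

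Signals were the linear array signals of the authors, scaled by them to 1 common mean per array, and are comparable between arrays for 1 probe set but not between probe sets. Testing in a tissue required a mean signal over its 20 arrays of at least 83.9 in gastrocnemius or 80.3 in heart, which 40% of the probe sets fell short of. Changes are differences of mean log2 signal, tested 2-sided with limma over the 27022 probe sets that passed in a tissue and adjusted by Benjamini-Hochberg, and a change was called at an adjusted p below 0.05. Per-array values are listed from replicate 1 to replicate 5. Since the tissue is bulk muscle, fewer cells or endplates of a kind and less RNA in each cannot be told apart.

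Some features of the arrays as a whole bear on these values. All 7 skeletal muscle fibre markers passed the cut-off in gastrocnemius and all 7 cardiomyocyte markers did in heart. Both tissues thus carried the markers of their label. In heart the fibre markers Actn3, Myh4, Tnnt3 and Pvalb did not pass, while Ckm, Acta1 and the fast-fibre gene Tnni2 did. In gastrocnemius 4 of the 7 cardiomyocyte markers passed, Myh6, Tnnt2, Actc1 and Myl2, and Tnni3, Nppa and Ryr2 did not. In gastrocnemius, the 12 probe sets of the poly-A transcripts added to the RNA as controls, which serve as controls of labelling, averaged between 6.40 and 8.10 on the log2 scale on the 10 control-diet arrays and between 9.16 and 10.6 on the 10 CR and resveratrol arrays. The ranges do not overlap, so the diet comparisons in this muscle cannot be told apart from whatever shifted this control signal. Over all tested probe sets the median log2 change was 0.16 with CR and 0.10 with resveratrol, and a member's change can be read against that shift. Gastrocnemius young control replicate 4 and old control replicate 1 stood apart, with actin 3′ minus 5′ log2 signals of 1.11 and 1.40 against -0.47 to 0.58 on the other 18 gastrocnemius arrays. Values without these 2 arrays are given where a call changes. The Gapdh 3′ minus 5′ log2 signals set the old control group apart more widely, at -0.22 to 3.23 on its 5 arrays. They were -0.30 to -0.23 on the CR and resveratrol arrays. Young control arrays gave -0.28 to 0.19, and only replicate 4 was above the lowest old control array. The part of this measure of RNA integrity in the comparisons with old controls was not tested.

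Of the 23 probe sets, 12 from 8 genes passed the cut-off in gastrocnemius. Chrnd and Chrng were below it with all their probe sets, and so were 5 of the 7 Ncam1 and 2 of the 6 Runx1 probe sets. With age, 3 of the 12 rose, the single probe sets of Chrna1 and Gadd45a and 1 of the 4 tested for Runx1, where 0.263% of all tested probe sets rose, and none fell. The young and old control groups did not overlap for 4 of the 12, those 3 and Chrnb1, against 3.53% of all tested probe sets. With CR, those of Chrna1 and Gadd45a and the same Runx1 probe set were called lower than in old controls, where 13.5% of all tested probe sets were called lower and 19.4% higher, and none of the 12 was called higher. The Runx1 probe set passed the cut-off only through the groups in which it is high, so its place in these counts is no support for them. With a stricter cut-off, the 60th percentile of level, which it did not reach, 7 member probe sets were tested, and those of Chrna1 and Gadd45a were called higher with age and lower with CR. Of all 18015 probe sets tested at that cut-off, 73 were called higher with age and 3438 lower with CR. In the fit at the 40th percentile, all 3 CR calls missed the threshold on leaving out any 1 of 6 arrays, old control replicates 2 to 5 and old CR replicates 2 and 3. None of the 12 separated the CR from the old control arrays without overlap, as 19.7% of all tested probe sets did. With resveratrol none of the 12 was called, at 10.8% of all tested probe sets called higher and 9.83% lower, and 1, Chrne, had an unadjusted p below 0.05. It was also the only 1 of the 12 whose groups did not overlap, against 18.2% of all tested probe sets. In a check with another tool, the methods' t-test on log2 signals, after the same adjustment, called Chrna1 and Chrne lower with resveratrol. Between CR and resveratrol none of the 12 was called by limma or by the methods' t-test, against 0.344% of all tested probe sets, and 2 had an unadjusted p below 0.05. The CR and resveratrol comparisons share the old control arrays with the age comparison, so the old control values enter all 3. With the arrays scaled instead to the median of all probe sets, a setting chosen after the data were seen, the median change over all probe sets was -0.28 with CR, -0.16 with resveratrol and 0.16 with age, and 5 of the 12 were called lower with CR, 1 lower with resveratrol and 3 higher with age. Under that scaling, 31.7% of all tested probe sets were called lower with CR, 19.0% lower with resveratrol and 1.18% higher with age. The share of all calls that were higher went from 58.9% to 13.5% with CR, from 52.3% to 17.2% with resveratrol and from 31.7% to 73.8% with age (47.3%, 48.0% and 40.9% after quantile normalization).

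**Figure D1:**
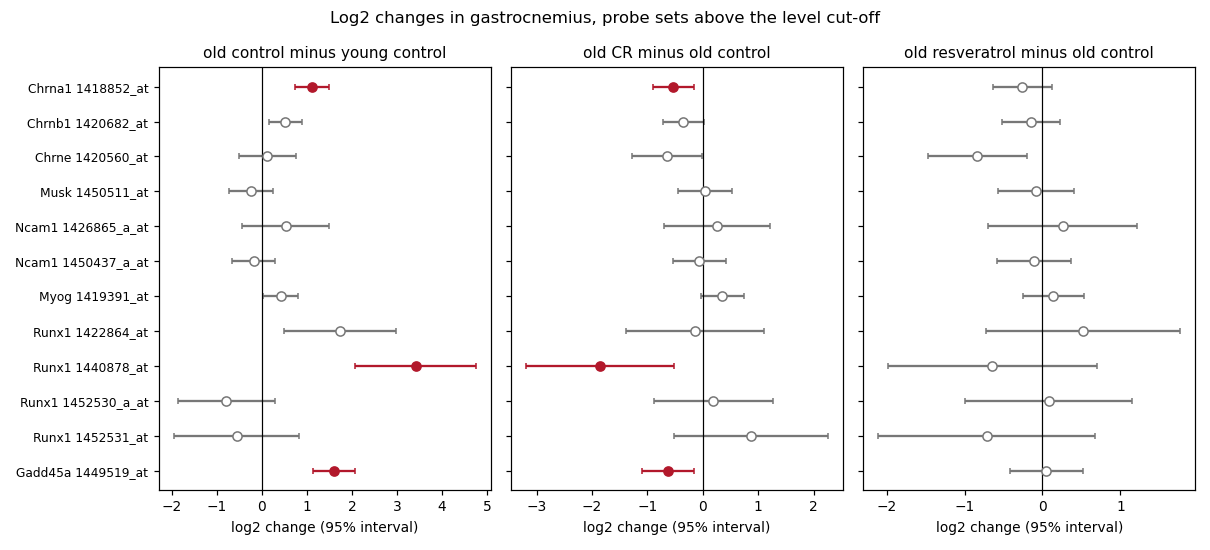
Log2 change with its 95% interval (x axis) for the 12 member probe sets above the level cut-off in gastrocnemius (y axis), in 3 comparisons of 5 against 5 arrays, with an x axis of its own for each panel. Filled red points have an adjusted p below 0.05: Chrna1, Runx1 1440878_at and Gadd45a with age and again, on the lower side, with CR, while no point is filled for resveratrol.

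Chrna1 encodes the alpha subunit, which carries the acetylcholine binding sites. Its signals in gastrocnemius were 571, 635, 733, 609 and 770.05 in young controls and 1216, 1411, 1556, 1414 and 1538 in old controls. Every old array lay above every young array. The means were 663 ± 84.5 and 1427 ± 136 (SD, n = 5). The log2 change was 1.11 (SE 0.19), a fitted 2.16-fold difference, with a limma adjusted p of 0.00755. The call held when each of the 20 arrays was left out in turn, with changes from 1.06 to 1.17 and an adjusted p of at most 0.0308. The old CR arrays gave 1551, 585, 725, 1100.3 and 1278, with replicate 1 among the old controls and replicates 2 and 3 among the young. The mean was 1048 ± 396 (SD, n = 5), and the log2 change from old controls was -0.53 (SE 0.19, limma adjusted p = 0.0389). This call was lost on leaving out any 1 of old control replicates 2 to 5 or old CR replicates 2 and 3, with the smallest change, -0.34 (limma adjusted p = 0.110), without old CR replicate 2. It was also lost after quantile normalization (limma adjusted p = 0.0801), without the trend in eBayes (limma adjusted p = 0.0518), with the 2 groups alone (limma adjusted p = 0.109) and under the methods' t-test on log2 or unlogged signals (adjusted p of 0.181 and 0.166). The resveratrol arrays lay close together, at 1153, 1094, 1252, 1257 and 1191, with a log2 change from old controls of -0.26 (95% interval -0.64 to 0.12). The methods' t-test on log2 or unlogged signals called this change (adjusted p of 0.0411 and 0.0410). In order of mean level, the old controls were followed by resveratrol, CR and the young. No difference was called by limma between old controls and resveratrol (limma adjusted p = 0.360) or between resveratrol and CR (-0.27, 95% interval -0.65 to 0.11), and CR against young was not tested.

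Chrnb1 encodes the beta subunit, through which the receptor is tied to the clustering machinery. Its signals were 1205, 1132, 1409, 1405 and 1408 in young and 2100.2, 1730.1, 1646, 1961 and 1966 in old controls. The groups did not overlap, with means of 1312 ± 133 and 1881 ± 187 (SD, n = 5), but the log2 change of 0.52 (SE 0.19) did not pass the test (limma adjusted p = 0.190). The CR arrays spread from below the young to above the old controls, at 2297, 881, 1152, 1790.04 and 1601, with a log2 change of -0.36 from old controls (limma adjusted p = 0.149), which was called only with the arrays scaled to the median of all probe sets (-0.80, limma adjusted p = 0.00320). The resveratrol arrays gave 1959, 1392, 2008, 1488 and 1696 and a log2 change of -0.15 (95% interval -0.52 to 0.22).

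Chrne encodes the epsilon subunit of the adult receptor. Its signals were 489, 385, 307, 122 and 469 in young controls and 254, 375, 369, 348 and 417 in old controls. The young group held both the highest value of all 20 arrays and, in replicate 4, the second lowest, and the log2 change with age was 0.12 (SE 0.32, limma adjusted p = 0.899). The resveratrol arrays gave 222, 172, 186, 190.4 and 208, all below the lowest old control array. Their mean was 196 ± 19.7 against 353 ± 60.7 (SD, n = 5), a log2 change of -0.84 (SE 0.32) that just missed the threshold (limma adjusted p = 0.0714). It passed without young control replicate 4 (-0.84, limma adjusted p = 0.0187), without old CR replicate 2 (-0.84, limma adjusted p = 0.0323) and without both outlying arrays (-0.95, limma adjusted p = 0.010). It also passed with the 2 groups alone (limma adjusted p = 0.00305). With the arrays scaled to the median of all probe sets it was called too (-1.10, limma adjusted p = 0.0150). The methods' t-test on log2 or unlogged signals likewise called it (adjusted p of 0.00567 and 0.00843). In the other alternatives it was not called. The CR arrays gave 333, 103, 204, 319 and 243, a log2 change of -0.65 (SE 0.32, limma adjusted p = 0.128) from old controls, which passed without the 2 outlying arrays (-0.76, limma adjusted p = 0.0271) and with the arrays scaled to the median of all probe sets (-1.09, limma adjusted p = 0.00994). CR and resveratrol differed by 0.19 on the log2 scale (95% interval -0.45 to 0.82).

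Chrnd, the delta subunit, and Chrng, the gamma subunit that Chrne replaces after birth, gave little signal. The only Chrnd probe set ranged from 6.65 to 96.4 over the 20 gastrocnemius arrays, with group means between 21.6 and 57.9. The 3 Chrng probe sets ranged from 2.68 to 182, and 1 array, old CR replicate 5 of 1449532_at, was above 83.9. With no cut-off on level, Chrng changed with age by -0.02, 0.45 and 0.79 on the log2 scale in its 3 probe sets (limma adjusted p of at least 0.666) and Chrnd by -0.36 (limma adjusted p = 0.874). A low signal here says that the probes were dim, not that the subunits were absent.

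**Figure D2:**
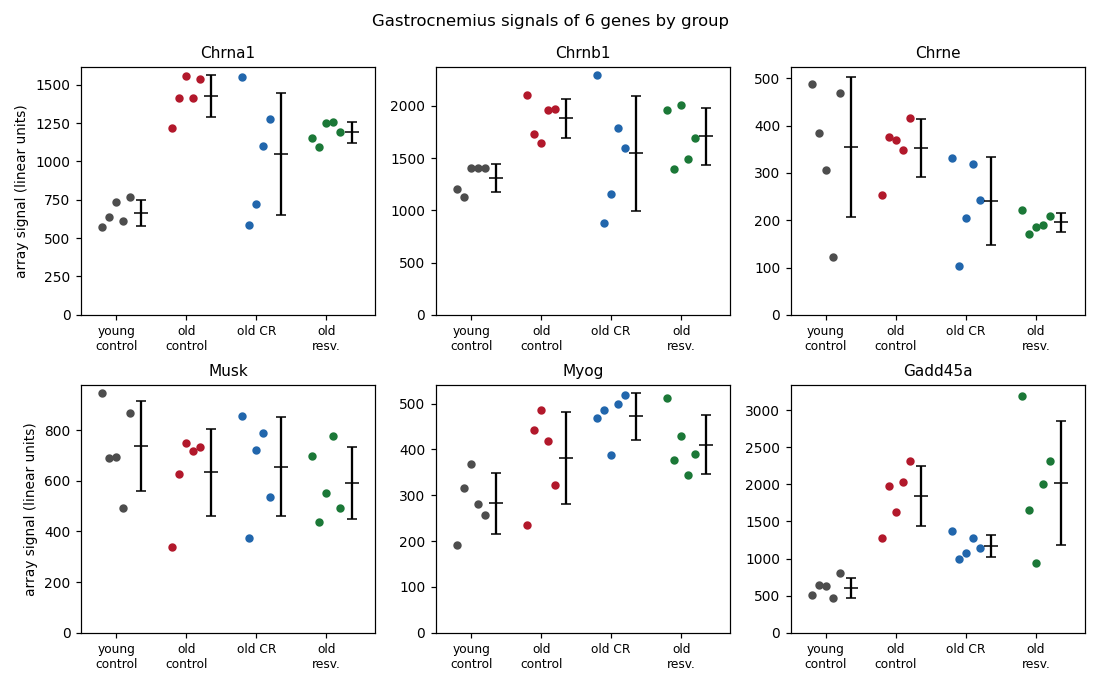
Linear array signal (y axis) of 6 member genes in gastrocnemius, by group (x axis, "resv." for resveratrol); points are the 5 arrays of a group from replicate 1 on the left to 5 on the right, and bars the mean ± SD. Chrna1 and Gadd45a lie higher on all old control arrays than on any young array, and Chrne lies lower on all resveratrol arrays than on any old control array.

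The spread within the CR group had a like pattern in several members. Old CR replicate 2 had the lowest value of its group for Chrna1, Chrnb1, Chrne and Musk, at -0.75, -0.73, -1.11 and -0.74 from the group mean on the log2 scale, and old CR replicate 1 the highest for the same 4, at 0.66, 0.65, 0.58 and 0.44. Over all 12 tested probe sets, replicate 2 was the lowest CR array for 9 and replicate 1 the highest for 6, while the outlying old control replicate 1 was the lowest of its own group for 8. The SD of the 5 Chrna1 signals was 396 in the CR group against 69.0 in the resveratrol group. The same 2 arrays were the ends of the poly-A control signal in that group, replicate 2 with the highest mean log2 signal, 10.6, and replicate 1 with the lowest, 9.16. Replicate 2 also had the highest summed signal of the 4 adipocyte markers, 101761 against 26912 to 53692 on the other 4 CR arrays, while its summed signal of the 7 muscle fibre markers, 450679, was within the 341019 to 502054 of the group. Old CR replicates 2 and 3 had the highest summed leukocyte marker signals, 13905 and 14307 against 7697 to 10674 on the other 3. The part of these features in the receptor values was not tested.

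**Figure D3:**
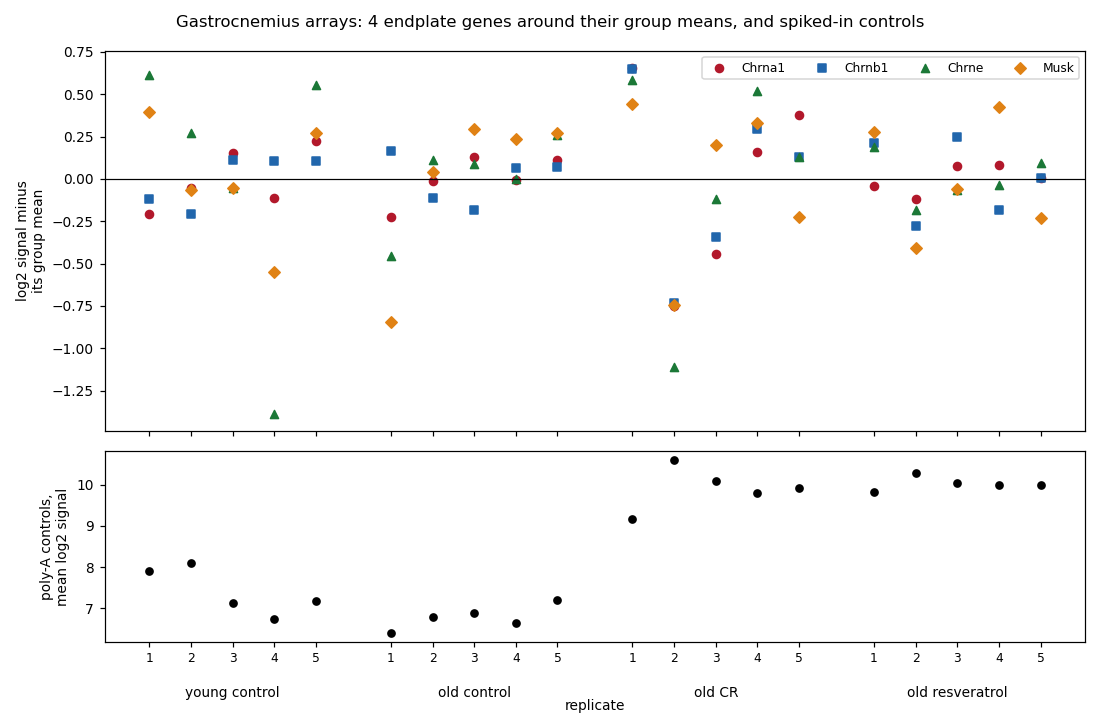
Upper panel, log2 signal minus the group mean (y axis) of Chrna1, Chrnb1, Chrne and Musk on each of the 20 gastrocnemius arrays (x axis, replicate 1 to 5 in 4 groups); lower panel, mean log2 signal of the 12 poly-A control probe sets on the same arrays. All 4 genes lie together at the top on old CR replicate 1 and at the bottom on old CR replicate 2, and the controls are higher on all CR and resveratrol arrays than on all control-diet arrays.

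Musk, the kinase at the centre of receptor clustering, gave 947, 689, 694, 492 and 868 in young controls and 339.5, 629, 749, 719 and 735 in old controls. Old control replicate 1 stood far below its group, and the log2 change with age was -0.24 (SE 0.25, limma adjusted p = 0.702). The CR arrays gave 854, 376, 723, 789.6 and 537 and the resveratrol arrays 699, 436, 554, 776 and 492. Both groups overlapped the old controls, with log2 changes of 0.04 (95% interval -0.44 to 0.53) and -0.08 (95% interval -0.57 to 0.41).

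Ncam1 encodes an adhesion molecule that is confined to junctions and satellite cells in innervated muscle. It has 7 probe sets, of which 1450437_a_at and 1426865_a_at passed in gastrocnemius. For 1450437_a_at the signals were 213, 208, 248, 168 and 306 in young and 153, 244, 176, 184 and 247 in old controls. They overlapped, with a log2 change of -0.18 (SE 0.24, limma adjusted p = 0.774), and the changes with CR and resveratrol were -0.06 and -0.11. For 1426865_a_at, young control replicate 1 read 10.5 against 77.4 to 152 on the other 4 arrays, and the 3 changes of 0.53, 0.26 and 0.26 had limma adjusted p-values of at least 0.656. Of the 5 probe sets under the cut-off, 1426864_a_at had the highest old control values, 171, 118, 117, 87.9 and 143, all but 1 of which exceeded every young value. With no cut-off on level it was 2.08 log2 units lower with CR (-2.08, SE 0.63, limma adjusted p = 0.0219), with CR signals of 89.5, 24.9, 17.5, 17.5 and 31.9. Its mean over the 20 arrays, 65.8, lay below the cut-off of 83.9, and the tested Ncam1 probe sets were not called.

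Myog encodes myogenin. Its signals were 191, 316, 369, 279.8 and 256 in young controls, 235, 443, 487, 417 and 323 in old controls, 469, 486, 387, 499 and 519.5 with CR and 512, 376, 429, 345 and 389 with resveratrol. Of the 10 CR and resveratrol arrays, 9 exceeded every young array, and both groups overlapped the old controls. The log2 change with age was 0.42 (SE 0.20, limma adjusted p = 0.319), and the log2 change from old controls to CR was 0.35 (SE 0.20, limma adjusted p = 0.179), neither of which passed. In the order young, old control, resveratrol and CR, no difference was called between tested neighbours, and the step from old control to resveratrol was 0.14 (95% interval -0.25 to 0.53).

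Runx1 encodes a Runt-domain transcription factor that is induced strongly when a muscle is denervated. Its 6 probe sets did not give 1 answer. The called one, 1440878_at, gave 17.6, 6.6, 20.8, 32.8 and 6.0 in young controls and 123, 159, 183, 117 and 157 in old controls. The groups lay far apart, with a log2 change of 3.41 (SE 0.68) and a limma adjusted p of 0.0191. All 5 young values were under the cut-off, and the mean over the 20 arrays, 84.4, was just above it, so that the probe set was tested only because of the groups in which it is high, and its fold depends on dim young values. The call with age was lost without young control replicate 2 (limma adjusted p = 0.0603), old control replicate 2 (limma adjusted p = 0.0505) or old control replicate 5 (limma adjusted p = 0.0512), and under the methods' t-test on log2 signals (adjusted p = 0.0875). The CR arrays gave 90.2, 14.6, 19.4, 169 and 24.8. On 3 of them it was at the level of the young and on 2 near or within that of the old controls, a log2 change of -1.85 (SE 0.68, limma adjusted p = 0.0417). That call was lost on leaving out any 1 old control array or old CR replicate 2, 3 or 5, with limma adjusted p-values up to 0.101, and under the methods' t-test on log2 or unlogged signals (adjusted p of 0.0903 and 0.0905). The resveratrol arrays spanned both levels, at 203, 65.6, 48.2, 67.9 and 162, with a log2 change of -0.64 (95% interval -1.98 to 0.69).

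The other Runx1 probe sets differed from it. Probe set 1422864_at was higher by 1.73 with age (SE 0.64, limma adjusted p = 0.195), with young values from 10.4 to 116 and old control values from 33.6 to 223. Probe sets 1452530_a_at and 1452531_at had negative changes with age, at -0.79 (SE 0.55) and -0.56 (SE 0.71), and neither passed (limma adjusted p of 0.529 and 0.763). Under the cut-off, 1422865_at had an old control mean of 130.1 ± 61.2 against 64.6 ± 35.3 (SD, n = 5) in the young, and 1427650_a_at one of 41.3 ± 36.4 against 15.2 ± 5.70 (SD, n = 5). With the values of all Runx1 probe sets averaged, the gene was not called in any gastrocnemius comparison.

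**Figure D4:**
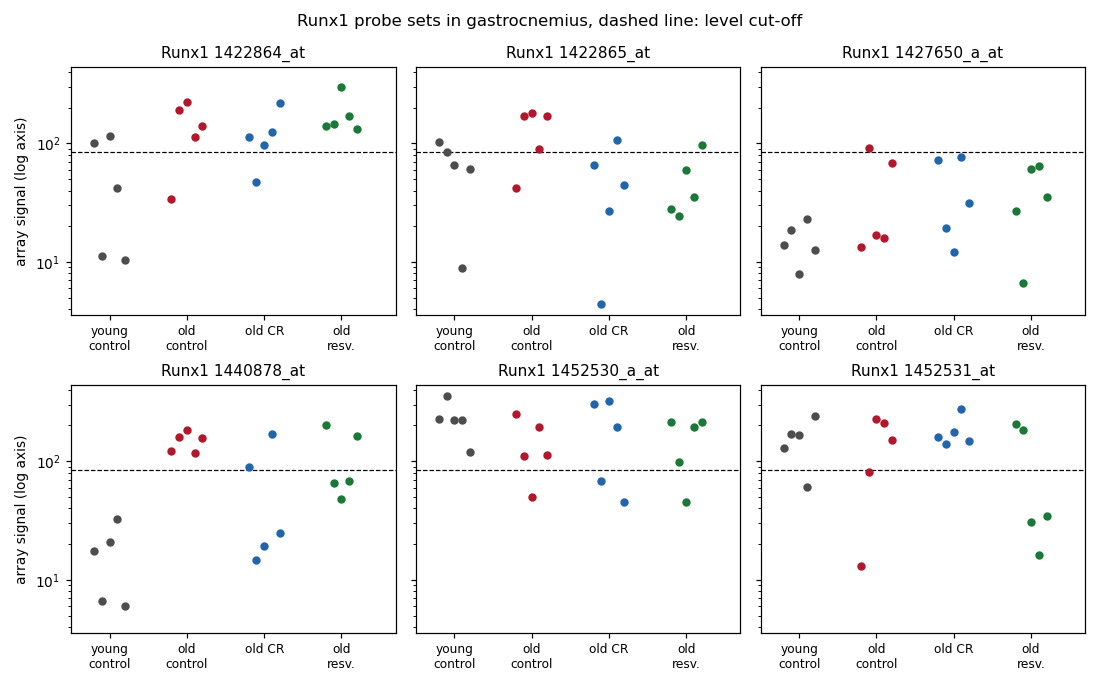
Array signal on a log axis (y axis) of the 6 Runx1 probe sets in gastrocnemius, by group (x axis, "resv." for resveratrol); points are the 5 arrays of a group and the dashed line is the level cut-off of 83.9. Only 1440878_at separates young from old controls without overlap, and all its young values lie below the line.

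Gadd45a encodes a protein of the growth arrest and DNA damage response that is among the genes most strongly induced by denervation. In gastrocnemius its old control signals, 1272, 1981, 1621, 2026 and 2318, all lay above its young signals, 505, 644, 625, 462 and 805, and the log2 change was 1.60 (SE 0.24, limma adjusted p = 0.00235). This call held when each of the 20 arrays was left out in turn, with changes from 1.51 to 1.72, but was lost under the methods' t-test on log2 or unlogged signals (adjusted p of 0.0650 and 0.0951). With CR the signals were 1369, 994, 1072, 1272 and 1135. Their range was narrow and lay between those of the young and most of the old controls, with 1 old control array inside it. The log2 change was -0.64 (SE 0.24, limma adjusted p = 0.0454), and the call was lost in 12 of the 20 fits that left out 1 array, with changes between -0.76 and -0.55 and limma adjusted p-values up to 0.110. It was also lost after quantile normalization (limma adjusted p = 0.0921), with no cut-off on level (limma adjusted p = 0.0568) and without the trend in eBayes (limma adjusted p = 0.0624). With resveratrol the signals were 3197, 1649, 934, 1999.9 and 2319.8, the widest spread of the 4 groups, and the log2 change was 0.05 (SE 0.24, limma adjusted p = 0.908). CR lay 0.69 below resveratrol on the log2 scale (95% interval of the difference -1.16 to -0.22), which was not called over all probe sets (limma adjusted p = 0.243).

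In heart, which has no motor endplates, 5 member probe sets of 4 genes passed the cut-off, those of Chrnb1 and Gadd45a, 1 of Ncam1 and 2 of Runx1. Chrna1, Chrnd, Chrne, Chrng, Musk and Myog were all below it, with Chrna1 between 5.88 and 158 over the 20 heart arrays and Chrne between 5.02 and 63.8. With age 1 of the 5 was called, lower, against 6.59% of all tested probe sets. With CR 1 was called, higher, against 10.3%, and with resveratrol 1, higher, against 7.56%. Among the 5, the CR and old control groups did not overlap for Runx1 1452530_a_at alone, against 17.6% of all tested probe sets. The resveratrol and old control groups did not overlap for Gadd45a alone, against 13.2% of all tested probe sets. Between CR and resveratrol none of the 5 was called by limma or by the methods' t-test, against 2.75%, and 3 had an unadjusted p below 0.05.

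The member lower with age in heart was Gadd45a, the reverse of its direction in gastrocnemius. Its heart signals were 570.3, 543, 783, 384 and 608 in young controls and 442, 431, 342, 272 and 391 in old controls. The groups overlapped, and the log2 change of -0.61 (SE 0.20, limma adjusted p = 0.0451) lost its call in 12 of the 20 fits that left out 1 array (limma adjusted p up to 0.134) and with the arrays scaled to the median of all probe sets (-0.49, limma adjusted p = 0.139), and in 8 more of the alternatives. The 5 old control hearts also had the highest actin 3′ minus 5′ log2 signals, 1.26 to 1.66 against 0.61 to 0.95 on the other 15 heart arrays, a measure of RNA integrity whose part in the heart comparisons was not tested. With resveratrol the heart signals were 534, 690.4, 703, 754 and 561, all above the old controls, and the log2 change of 0.80 (SE 0.20, limma adjusted p = 0.00655) held in all 20 of these fits. With CR they were 521, 469, 647, 351 and 369, a log2 change of 0.31 (SE 0.20, limma adjusted p = 0.282). Some markers of other cells moved the same way as Gadd45a in heart, and others did not. With age 3 of 6 fibroblast markers fell and none rose, and their summed signal was 27966 to 44963 on young control and 16917 to 35937 on old control arrays. With resveratrol 3 of 6 fibroblast and 6 of 12 leukocyte markers rose and none fell, with sums of 35590 to 46979 for fibroblasts and 17373 to 26082 for leukocytes, the latter against 12000 to 17013 on old control arrays. Of the 12 leukocyte markers, 1 rose with age and none fell. With CR, where Gadd45a was not called, 7 of 12 leukocyte, 2 of 6 fibroblast and 2 of 3 adipocyte markers rose and none fell. The part of these cells in the Gadd45a values was not tested.

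Tested as a difference between the tissues, over 30187 probe sets on 40 arrays, the Gadd45a change with age was 2.20 log2 units larger in gastrocnemius than in heart (SE 0.31, limma adjusted p = 5.65e-05), and this held in each of the 40 fits that left out 1 array. It was 1 of 12 member probe sets called, against 1.86% of all tested. For CR, 2 of 12 were called, against 16.3%: the change of Gadd45a was 0.95 lower in gastrocnemius (-0.95, SE 0.31, limma adjusted p = 0.0315) and that of Runx1 1440878_at 3.42 lower (-3.42, SE 1.13, limma adjusted p = 0.0319). Both were lost without 1 of several arrays, the first in 8 of 40 fits and the second in 9, and the Runx1 probe set was below the cut-off in heart. For resveratrol, 1 of 12 was called, against 12.8%: Ncam1 1426865_a_at, whose change was 2.63 lower in gastrocnemius (-2.63, SE 0.87, limma adjusted p = 0.0372). It rested on heart signals below the cut-off, 5.59, 31.7, 12.7, 5.20 and 13.0 in old controls against 99.1, 64.3, 114, 75.7 and 61.9 with resveratrol, and was lost in 10 of 40 fits. The difference in the Gadd45a response to resveratrol, -0.75 (SE 0.31), was not called (limma adjusted p = 0.119).

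The member higher with CR in heart was Runx1, by probe set 1452530_a_at. Its signals were 316, 216, 364, 380.2 and 268 in old controls and 620.1, 780.5, 746, 868 and 581 with CR. Every CR array lay above every old control array, with means of 719 ± 118 and 309 ± 67.9 (SD, n = 5), and the log2 change of 1.23 (SE 0.32, limma adjusted p = 0.00643) held in all 20 fits that left out 1 array. With resveratrol it was 0.38 (SE 0.32, limma adjusted p = 0.492). Probe set 1452531_at gave 0.96 with CR (SE 0.82, limma adjusted p = 0.443), and the gene was not called when all its probe sets were averaged (1.01, limma adjusted p = 0.102). In heart, 7 of 12 leukocyte markers were also called higher with CR and none lower, with summed signals of 19478 to 23938 on CR arrays and 12000 to 17013 on old control arrays. With resveratrol, where this Runx1 probe set was not called, 6 of 12 leukocyte markers rose and none fell, with summed signals of 17373 to 26082. Runx1 is also expressed in leukocytes, and their part in its heart signal was not tested.

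**Figure D5:**
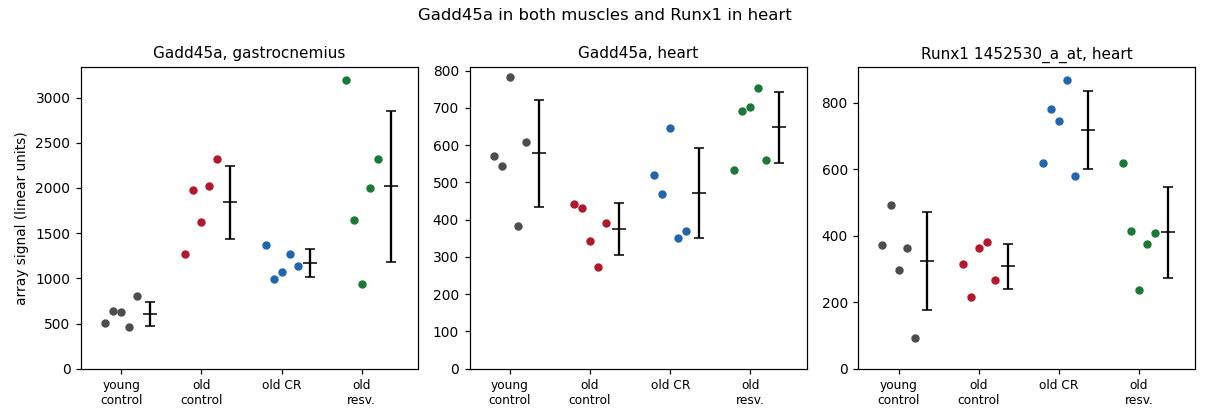
Linear array signal (y axis) of Gadd45a in gastrocnemius (left) and heart (middle) and of Runx1 1452530_a_at in heart (right), by group (x axis, "resv." for resveratrol), with 5 arrays per group as points and the mean ± SD as bars. Gadd45a is higher on all old control than on all young arrays in gastrocnemius but not in heart, and Runx1 is higher on all CR than on all old control arrays in heart.

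The remaining heart members gave no call. Ncam1 1450437_a_at had heart signals of 107, 117, 178, 139.5 and 152 in old controls, 258, 431, 158, 248 and 288 with CR and 30.8, 166, 122, 147 and 184 with resveratrol. The log2 changes were 0.95 with CR (SE 0.41, limma adjusted p = 0.104) and -0.30 with resveratrol (SE 0.41, limma adjusted p = 0.702). Chrnb1 in heart ranged from 94.7 to 443, with changes of -0.15 with age, 0.44 with CR and 0.57 with resveratrol, all with limma adjusted p-values of at least 0.240. In neocortex, where the members were not tested, 9 probe sets of 4 genes passed the cut-off of 62.5. The Ncam1 probe sets 1426864_a_at, 1426865_a_at and 1450437_a_at had mean signals of 1343, 854 and 808 there, against 65.8, 107 and 204 in gastrocnemius, and neither Chrna1 nor Musk passed.

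A pair of further lists places the members among genes of related function, with each gene read by its brightest probe set. Of 25 genes of synapse assembly and receptor clustering, 21 passed in gastrocnemius. None was called with age, while with CR 3 rose and 6 fell, and with resveratrol 2 rose and 6 fell. Over all tested probe sets, 19.4% rose and 13.5% fell with CR and 10.8% rose and 9.83% fell with resveratrol. With the arrays scaled to the median of all probe sets, none of the 21 was called higher, while 10 were called lower with CR and 8 with resveratrol. That scaling called 4.94% of all tested probe sets higher and 31.7% lower with CR, and 3.94% higher and 19.0% lower with resveratrol. The largest called changes with CR were those of Colq, the collagen tail of acetylcholinesterase, at 1.36 (SE 0.40), Dag1, dystroglycan, at -1.13 (SE 0.21), Gabpb1, a subunit of the N-box factor GABP, at -0.97 (SE 0.23), and Lamb2, the synaptic laminin beta 2 chain, at -0.95 (SE 0.28). With resveratrol they were those of Gabpb1 at -1.03 (SE 0.23), Lrp4, the agrin receptor, at 0.97 (SE 0.27), Etv5, an ETS factor of the synaptic nuclei, at -0.95 (SE 0.30), and Dag1 at -0.76 (SE 0.21). The list's median change was 0.11 with age, -0.12 with CR and -0.20 with resveratrol, beside -0.03, 0.16 and 0.10 over all tested probe sets. In gastrocnemius, 5 of 10 leukocyte markers also rose with CR and 5 of 10 with resveratrol, 3 of 6 fibroblast markers fell with CR, and 3 of 8 Schwann cell and nerve markers fell with resveratrol and 2 of 8 rose with CR. No marker of these lists was called with age, but the summed signals of 2 lists separated the young from the old controls. The summed leukocyte signal was 4813 to 6106 on young control, 6389 to 7926 on old control, 7697 to 14307 on CR and 8314 to 17628 on resveratrol arrays. The summed signal of the 4 adipocyte markers was 17094 to 26618 on young and 26929 to 41005 on old control arrays. The motor axon markers Gap43, Nefl and Nefm were below the cut-off, and the part of other cell types in these changes and in the calls of the members with age was not tested.

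Of 22 genes that respond to denervation or to muscle activity, 19 passed in gastrocnemius. With age 3 rose and none fell, where 0.263% of all tested probe sets rose. They were Sln, the sarcoplasmic calcium pump inhibitor sarcolipin, at 2.64 (SE 0.30, limma adjusted p = 0.000356), Ankrd1, a stretch-responsive sarcomere protein, at 1.19 (SE 0.28, limma adjusted p = 0.0496), and Cdkn1a, the cell cycle inhibitor p21, at 1.11 (SE 0.20, limma adjusted p = 0.0108). With CR 5 rose and 5 fell, beside the 19.4% and 13.5% of all tested probe sets given above, the 4 largest changes being those of Sln at 2.41 (SE 0.30), Hdac9, a class II deacetylase that represses synaptic genes, at -1.51 (SE 0.26), Cdkn1a at 1.30 (SE 0.20) and the ubiquitin ligase Trim63 at 1.2 (SE 0.15). With resveratrol 5 rose and 4 fell, beside 10.8% and 9.83% of all, the 4 largest being those of Sln at 1.55 (SE 0.30), Myh3, embryonic myosin heavy chain, at -1.06 (SE 0.33), Myod1, a myogenic factor related to myogenin, at 0.81 (SE 0.23), and Cdkn1a at 0.78 (SE 0.20). Sln and Cdkn1a, which also rose with age, were higher still on the arrays on which Chrna1 and Gadd45a were called lower than in old controls. The list's median change was 0.16 with age, 0.01 with CR and -0.06 with resveratrol. With the arrays scaled to the median of all probe sets, 5 rose and none fell with age, 3 rose and 8 fell with CR, and 2 rose and 5 fell with resveratrol. Among all tested probe sets, that scaling called 1.18% higher and 0.418% lower with age. The shares were 4.94% higher and 31.7% lower with CR, and 3.94% higher and 19.0% lower with resveratrol.

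For each gene with a probe set called with age, the genes whose log2 signals followed its brightest probe set most closely over the 20 gastrocnemius arrays were found by the root mean square difference of centred values. For Chrna1 the nearest gene was Chrnb1, at 0.29 log2 units, where Chrna1 itself varied by 0.50, followed by Ets2, an ETS transcription factor, at 0.29 and Raph1 at 0.31. Ets2 signals averaged 1861 in young controls, 2993 in old controls, 2294 with CR and 2992 with resveratrol. For Gadd45a the nearest was Cpne2, a calcium-dependent membrane-binding protein, at 0.29 where Gadd45a varied by 0.76, with means of 366, 1300.2, 811 and 1213 in the same order. Apod and Zfpm2 followed at 0.45 each. For Runx1 the brightest probe set was 1452530_a_at, which was not called with age and whose change had the opposite sign to that of the called 1440878_at. It had no near neighbour, the closest being Tyr at 0.63 where Runx1 varied by 0.92. The arrays share their scaling, group means and tissue pieces, so these differences describe likeness alone.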

How the data were processed

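RNA from gastrocnemius, heart and neocortex had been hybridised to Affymetrix Mouse Genome 430 2.0 arrays, 1 array per sample, 60 arrays in all. The deposited values are linear signal intensities of 45101 probe sets, which per the labels the authors made with GCOS 1.2. The 2% trimmed mean of every array is 500, as tested on the values. Background and mismatch handling, and detection calls, are not given in the sources used here. The labels do not say whether the tissues came from the same mice.

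Signals were floored at 1 and taken as log2. In each tissue, limma 3.58.1 (R 4.3.3; lmFit, then eBayes with trend) was fitted to the 20 arrays of the 4 groups for the 27022 probe sets whose mean signal reached the 40th percentile of the 45037 probe sets that are no controls. P-values are 2-sided and were adjusted by Benjamini-Hochberg over all probe sets tested, and calls were made at 0.05. Differences between tissues were fitted over 40 arrays as if from different mice. The same code was tested on simulated data. Probe sets were named through GEO's platform annotation, in which 34945 probe sets have 1 gene symbol. Probe sets of 1 gene can hybridise to different transcripts and were kept apart. The genes named are all members, up to 4 called genes of each further list with the largest change, each read by its brightest probe set, and the 3 genes nearest to each member called with age. The members and lists were chosen with earlier results of these data known.

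Alternatives were quantile normalization, an offset of 32, no filter and a 60th percentile filter, the methods' t-test on log2 and on unlogged signals, eBayes without trend, the 2 groups alone, 1 probe set or the mean of all probe sets per gene, a replicate block, the removal of each array in turn and of 2 outlying arrays. Scaling to the median of all probe sets was added after the data were seen. Since arrays give no read counts, their number limits the precision, and p-values measure the spread between samples labelled as biological replicates. Promoters are RefSeq windows of GRCm38.p6. Tables were made with pandas 2.3.3 under Python 3.11.15 and figures with matplotlib 3.10.9.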

Additional observations from a re-analysis of the deposited data

Results flagged for a closer look

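Of 68 groups of 5 arrays, in each of which 1 member probe set was examined, 4 held a lowest array whose log2 gap to the rest exceeded 0.71 of the group's range, where chance gives about 1 in 20. Musk in gastrocnemius read 339.5 on old control replicate 1 against 629 to 749 on the other 4 old control arrays, a gap of 0.778 of the range. Ncam1 1426865_a_at in gastrocnemius read 10.5 on young control replicate 1 against 77.4 to 152, a gap of 0.748. Chrnb1 in heart read 94.7 on young control replicate 4 against 285 to 379, a gap of 0.796. Ncam1 1450437_a_at in heart read 30.8 on old resveratrol replicate 1 against 122 to 184, a gap of 0.772.

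Changes that differed between the tissues by the test of the difference itself were 4. The change of Gadd45a with age was 2.20 log2 units higher in gastrocnemius than in heart, and its change with CR differed by -0.95. The change of Runx1 1440878_at with CR differed by -3.42 and that of Ncam1 1426865_a_at with resveratrol by -2.63, and in both of these the probe set was below the level cut-off in heart.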

How the results depend on the processing

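Counts of member probe sets called moved as follows. With age in gastrocnemius, the 3 calls became 1 under the methods' t-test on log2 signals, which left Chrna1, and 2 under that on unlogged signals, with the stricter filter, with 1 probe set per gene and with probe sets averaged. The last 3 settings left Chrna1 and Gadd45a. With CR, 3 became 1 after quantile normalization, under both t-tests, without the trend and with probe sets averaged, 2 with the stricter filter, the 2 groups alone or 1 probe set per gene, 4 without the 2 outlying arrays, Chrne being added, and 5 with median scaling. With no filter the CR count stayed at 3, with Gadd45a lost and Ncam1 1426864_a_at gained. With resveratrol, 0 became 2 under both t-tests and 1 with the 2 groups alone, with median scaling or without the 2 outlying arrays. In heart, the 1 call with age became 0 after quantile normalization, with no filter, under both t-tests, without the trend, with the 2 groups alone, with probe sets averaged, with median scaling and without the 2 outlying arrays. The 1 with CR became 2 with no filter, the log2 t-test or the 2 groups alone and 0 with probe sets averaged. The 1 with resveratrol became 2 with no filter. For CR against resveratrol in heart, 0 became 1 with the 2 groups alone or median scaling. Between the tissues, the 1 call for age became 2 with the offset, the 2 for CR became 1 after quantile normalization or the stricter filter and 3 with no filter, Runx1 1422865_at being added, and the 1 for resveratrol became 0 with the offset, no filter, the stricter filter or without the outlying arrays.

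Leaving out 1 array gave 2 to 3 calls with age, 0 to 4 with CR, 0 to 1 with resveratrol and 0 to 0 for CR against resveratrol in gastrocnemius. In heart it gave 0 to 1, 1 to 2, 1 to 1 and 0 to 1, and between the tissues 1 to 2 for age, 0 to 2 for CR and 0 to 2 for resveratrol. Of 104 member changes, 20 changed sign under 1 or more of the alternatives that keep probe sets apart and leave out no single array, and none of these was called before or after. Median scaling turned 12 of the 48 in gastrocnemius. With CR, Myog went from 0.35 to -0.09, Musk from 0.04 to -0.40, Ncam1 1426865_a_at from 0.26 to -0.19 and Runx1 1452530_a_at from 0.19 to -0.25. With resveratrol, Gadd45a went from 0.05 to -0.21 and Myog from 0.14 to -0.13. In heart, Gadd45a with CR went from 0.31 to -0.05. Without the 2 outlying arrays, Chrne with age went from 0.12 to -0.11. For the changes that were called or had an unadjusted p below 0.02, no direction turned, 230 values stayed on the same side of the threshold, 37 lost it and 11 gained it. The causes were not tested.

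Samples with the same replicate number did not deviate together (correlations of -0.233 to 0.120 in gastrocnemius, 4 of 30 over 0.1, and -0.0439 to 0.0578 in heart), so the numbers were not taken as pairing. With the replicate as a block the gastrocnemius counts stayed at 3, 3, 0 and 0, and the 1 tissue difference for resveratrol became 0. At the methods' own threshold of 0.01, unadjusted, the t-test on log2 signals called 4 members higher with age. It called 1 lower with CR and 2 lower with resveratrol. Of all 27022 tested gastrocnemius probe sets, 1133 reached that threshold with age, 5786 with CR and 5692 with resveratrol, in both directions together. After adjustment over all probe sets, this t-test called 4 probe sets of any gene with age, against 224 in the limma fit.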
